A study of Mus musculus with 18 samples.

Results

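The genes described here encode the proteasome: its subunits, activators, inhibitor and assembly factors. They were chosen by symbol, as every row whose gene symbol begins with Psma to Psmg followed by a digit and holds no pseudogene ending (-ps). This gave 50 of the 57010 genes in the count table. Of these, 49 passed the filter on low counts, and Psmb11, a core subunit of the thymus cortex, had 0 counts in all 18 libraries, which allows at most 0.396 CPM (counts scaled to the library's depth) in the shallowest library and 0.102 in the deepest. The rule also took in Psmc3ip, a partner of meiotic recombinases that shares the symbol but is no part of the proteasome, and the germ-line core subunit Psma8. The 3 subunits that interferon induces (Psmb8, Psmb9 and Psmb10) are set apart from the rest throughout.

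The proteasome is the main protease of the cytosol and nucleus and degrades proteins tagged with ubiquitin. Its barrel-shaped core has outer rings of alpha subunits, which gate the entry, and inner rings of beta subunits, of which Psmb5 (chymotrypsin-like activity), Psmb6 (caspase-like) and Psmb7 (trypsin-like) cut peptide bonds. A regulatory particle, made of a base with a ring of ATPases and a lid, binds the ubiquitin chain, removes it and unfolds the substrate. Under interferon, Psmb8, Psmb9 and Psmb10 replace Psmb5, Psmb6 and Psmb7 in newly built cores, which forms the immunoproteasome, and the PA28 cap of Psme1 and Psme2 can bind the core; peptides made this way are loaded onto MHC class I molecules.

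RNA was sequenced in bulk from CD11b-selected brain cells (microglia and macrophages) of male wild-type mice, after Ly6G-positive cells had been depleted, in 6 groups of 3 libraries. The groups were aged stroke bexarotene, aged stroke vehicle, aged bexarotene, aged vehicle, young bexarotene and young vehicle. Aged mice were 18 to 20 months old and young mice 2 to 4 months old, and stroke was an occlusion of the middle cerebral artery studied on day 3, which was carried out in aged mice alone. Bexarotene, which activates retinoid X receptors, was injected into the peritoneum at 5 mg/kg from 24 hours after surgery and then daily, and the vehicle was 3% DMSO in saline. The sources used here do not say which surgery mice without stroke had, nor whether animals were pooled.

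Libraries with stroke held 16206144 to 29359943 counts and those without 7582511 to 11852638, so depth and stroke cannot be told apart. The 6 microglial markers checked summed to 11097 to 14725 CPM (here scaled by TMM) in stroke libraries and 30038 to 43598 in the others. The 8 markers of infiltrating monocytes summed to 1703 to 4091 CPM in stroke libraries and 266 to 527 in the others. Genes of choroid plexus epithelium stood apart in the libraries numbered 1 of 5 of the 6 groups, where 6 of them summed to 1033 to 2092 CPM against 93.5 to 734 in the rest, and for that reason the counts below were also taken without all libraries numbered 1. In bulk RNA, a change in the mix of cells and a change in RNA per cell cannot be told apart.

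Promoter windows are shown for 5 genes: the interferon-induced Psmb8 and Psmb9, the standard Psmb5 and Psmb6 they replace, and Psme1 of PA28. Each runs from 250 bases before to 50 bases after the RefSeq transcript start (GRCm38.p6), 5′ to 3′ on the gene's strand. Capitals mark matches, on either strand, to the cores of 3 known response elements: the interferon-stimulated response element (GAAANNGAAA), the gamma-activated site (TTCNNNGAA) and the antioxidant response element used by NRF factors (TGACNNNGC). The windows lie at chr17:34197945-34198244 (plus strand) for Psmb8, chr17:34187281-34187580 (minus) for Psmb9, chr14:55578244-55578543 (plus) for Psme1, chr14:54617946-54618245 (minus) for Psmb5 and chr11:70525107-70525406 (plus) for Psmb6.
Psmb8: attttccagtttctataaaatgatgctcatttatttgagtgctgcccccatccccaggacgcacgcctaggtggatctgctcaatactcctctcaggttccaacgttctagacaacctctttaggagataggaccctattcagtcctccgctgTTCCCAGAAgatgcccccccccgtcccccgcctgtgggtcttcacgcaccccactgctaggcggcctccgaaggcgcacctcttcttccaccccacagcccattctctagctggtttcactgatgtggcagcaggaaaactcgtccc
Psmb9: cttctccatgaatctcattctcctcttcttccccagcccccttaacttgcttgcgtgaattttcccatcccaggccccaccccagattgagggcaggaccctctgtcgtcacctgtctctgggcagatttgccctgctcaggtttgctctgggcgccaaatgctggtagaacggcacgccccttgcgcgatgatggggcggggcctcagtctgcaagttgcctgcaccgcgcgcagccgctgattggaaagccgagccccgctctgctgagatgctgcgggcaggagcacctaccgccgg
Psme1: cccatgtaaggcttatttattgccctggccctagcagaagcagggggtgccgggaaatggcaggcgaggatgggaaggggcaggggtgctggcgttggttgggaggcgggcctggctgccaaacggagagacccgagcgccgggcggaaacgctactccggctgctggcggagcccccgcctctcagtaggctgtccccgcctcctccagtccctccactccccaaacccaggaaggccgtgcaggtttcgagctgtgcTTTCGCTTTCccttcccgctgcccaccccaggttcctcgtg
Psmb5: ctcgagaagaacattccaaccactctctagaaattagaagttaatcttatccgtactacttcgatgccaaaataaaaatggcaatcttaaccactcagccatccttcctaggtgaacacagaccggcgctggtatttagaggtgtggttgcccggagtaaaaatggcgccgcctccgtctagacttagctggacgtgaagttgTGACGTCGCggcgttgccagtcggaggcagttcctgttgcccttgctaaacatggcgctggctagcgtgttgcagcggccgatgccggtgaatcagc
Psmb6: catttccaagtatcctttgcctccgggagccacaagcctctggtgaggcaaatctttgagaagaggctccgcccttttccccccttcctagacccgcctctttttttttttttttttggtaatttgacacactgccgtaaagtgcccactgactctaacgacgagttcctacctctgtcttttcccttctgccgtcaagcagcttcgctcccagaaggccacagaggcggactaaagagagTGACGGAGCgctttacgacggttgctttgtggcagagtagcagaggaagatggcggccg
In Psmb8 the match is to the gamma-activated site core and begins at base -97 from the start, and in Psme1 it is to the interferon-stimulated core on the opposite strand and begins at base 10 after the start. In Psmb5 and Psmb6 the matches are to the antioxidant core and begin at bases -47 and -9. The Psmb9 window holds none of these 3 strings of letters. Of the 50 genes, 42 had a window in the table, 45 windows in all. The interferon-stimulated core occurred in 5 of the 45 (Psmb3, Psmd4, Psmd9, Psme1 and Psmg4), the gamma-activated core in 3 (Psmb8, Psmd2 and Psmg1) and the antioxidant core in 6 (Psmb5, Psmb6, Psmc6, Psmd12, Psmd9 and Psme4). Over all 32851 windows of 27025 genes the shares were 3.44%, 8.30% and 12.4%. A match of letters is a description and not a bound site.

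Proteasome transcripts made up a small and steady part of the RNA without stroke and a larger part with it. The 50 genes held 0.430% to 0.482% of all counts in aged stroke bexarotene libraries and 0.452% to 0.461% in aged stroke vehicle libraries. They held 0.337% to 0.359% in aged bexarotene, 0.337% to 0.346% in aged vehicle, 0.323% to 0.352% in young bexarotene and 0.315% to 0.345% in young vehicle libraries. All 6 stroke libraries lay above all 12 others, while the 4 groups without stroke overlapped. Among the 50 genes, 31 were subunits of the standard core or regulatory particle. These 31 summed to 3699 ± 368 CPM in aged stroke bexarotene and 3719 ± 83.4 in aged stroke vehicle. Without stroke they summed to 2684 ± 168 in aged bexarotene, 2674 ± 130 in aged vehicle, 2613 ± 185 in young bexarotene and 2627 ± 215 in young vehicle (SD, n = 3 each).

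**Figure D1:**
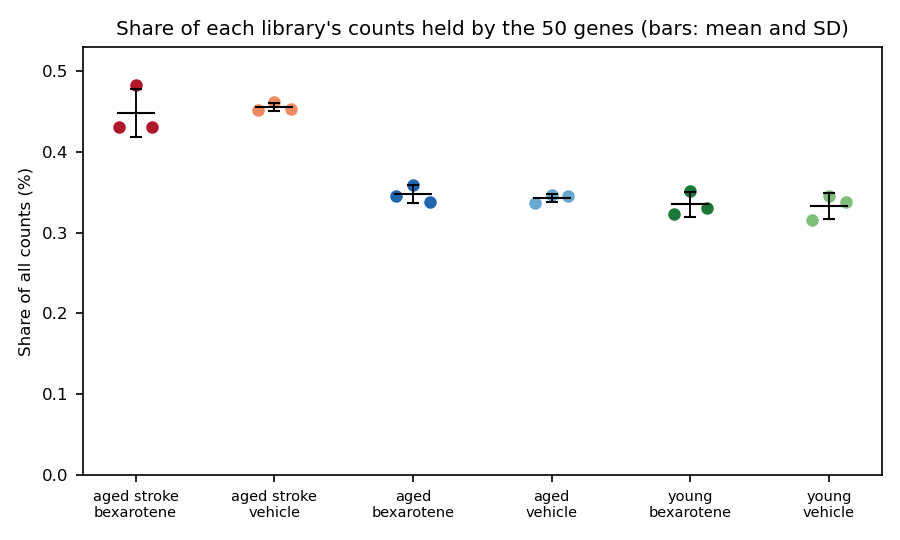
Share of each library's counts (vertical axis, percent) held by the 50 genes, by group (horizontal axis); points are libraries and bars the mean and SD of 3. The 6 stroke libraries lie at 0.430% or more, and the others at 0.359% or less.

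Transcript levels per length differed widely among the genes. In aged vehicle cells, Psma1 of the alpha ring had the highest level per kilobase of principal transcript, 116 ± 4.68 CPM per kilobase, followed by Psmb2 at 112 ± 10.8, Psmb6 at 112 ± 9.02 and Psma7 at 110 ± 9.03, neighbours that lay within each other's SD. The lowest tested subunit was Psma8, at 4.43 ± 0.565 CPM per kilobase, and the activator Psme4 (PA200) stood at 4.78 ± 0.589 (SD, n = 3). With stroke under vehicle, Psma7 and Psmb6 led, at 188 ± 12.3 and 187 ± 16.6 CPM per kilobase, and Psmb8 came eighth of the 49 at 115 ± 8.20.

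The stroke comparison, aged stroke vehicle over aged vehicle, showed the broadest change. Of the 49 genes tested, 34 rose and 2 fell at a Benjamini-Hochberg adjusted p under 0.05 in edgeR's quasi-likelihood test across all genes. Over all 15528 genes tested, 27.2% rose and 21.1% fell. The median log2 fold change was 0.51 over the 49 genes and 0.02 over all genes. The 2 groups did not overlap, with stroke higher, for 36 of the 49 genes, against 31% of all genes. The rises were modest: 18 of the 34 reached 1.5-fold, and only Psmg4 and Psmc3ip reached 2-fold.

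Every one of the 14 standard core subunits rose, with a median log2 fold change of 0.66 and a range of 0.31 to 0.95. This took in all 7 alpha subunits, all 4 beta subunits without catalytic activity and all 3 catalytic ones. Psmb4, a structural beta subunit, had 74.1, 77.9 and 71.4 CPM in aged stroke vehicle libraries, against 34.6, 40.6 and 40.8 in aged vehicle libraries. Its stroke libraries all lay well above the others, a log2 fold change of 0.95 ± 0.13 (SE; adjusted p = 7.24e-06). Psma4 of the alpha ring had 137, 124 and 144 CPM with stroke under vehicle, against 74.2, 85.4 and 79.6 without, and rose by 0.76 ± 0.10 (adjusted p = 6.53e-06). Psma5, another alpha subunit, had 80.0, 75.1 and 71.5 CPM in aged stroke vehicle libraries and 41.3, 45.9 and 48.2 in aged vehicle libraries, a rise of 0.74 ± 0.10 (adjusted p = 8.39e-06). In neither gene did the groups overlap.

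Among the standard catalytic subunits, Psmb5 had 80.8, 76.1 and 81.6 CPM in aged stroke vehicle libraries, against 41.2, 51.7 and 48.4 in aged vehicle libraries, and rose by 0.76 ± 0.14 (adjusted p = 0.000252). Psmb6 had 144, 139 and 164 CPM with stroke under vehicle, against 81.2, 91.3 and 95.1 without, a rise of 0.74 ± 0.12 (adjusted p = 3.59e-05). Psmb7 was the lowest of them, with 28.5, 32.2 and 33.7 CPM in aged stroke vehicle libraries and 19.4, 23.9 and 22.1 in aged vehicle libraries, and rose by 0.53 ± 0.13 (adjusted p = 0.00228). For all 3, the lowest stroke library lay above the highest without stroke. Psmb7 shares 255 bases of identical transcript sequence with Nek6, which had 35195 counts over all libraries against 6262 for Psmb7, so all values of Psmb7, its ratios included, are uncertain.

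The interferon-induced counterparts rose as well. Psmb8, which replaces Psmb5, had 191, 172 and 198 CPM in aged stroke vehicle libraries, against 99.3, 113 and 107 in aged vehicle libraries, a log2 fold change of 0.81 ± 0.12 (adjusted p = 2.32e-05). Psmb9, which replaces Psmb6, had 95.8, 85.3 and 96.6 CPM with stroke under vehicle, against 64.1, 61.3 and 53.4 without, and rose by 0.63 ± 0.09 (adjusted p = 1.57e-05). Psmb10, which replaces Psmb7, had 85.5, 83.3 and 74.6 CPM in aged stroke vehicle libraries and 46.0, 49.7 and 56.4 in aged vehicle libraries, a rise of 0.68 ± 0.15 (adjusted p = 0.00107). In all 3 genes, every stroke library stood above every aged vehicle library. Psmb9 shares 212 bases of identical transcript sequence with Tap1, which had 25019 counts over all libraries against 17774 for Psmb9. All values of Psmb9, its ratios included, are therefore uncertain.

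Within the 3 pairs of interferon-induced and standard counterparts, the ratio of counts moved little with stroke under vehicle. The interferon-induced subunits together summed to 361 ± 17.4 CPM in aged stroke vehicle and 217 ± 7.29 in aged vehicle (SD, n = 3 each). The 31 standard subunits summed to 3719 ± 83.4 and 2674 ± 130 CPM there, and the balance of these sums was not tested. The ratio of Psmb8 to Psmb5 counts within a library was 2.26 to 2.42 in aged stroke vehicle, against 2.19 to 2.41 in aged vehicle, and the ranges overlapped. Psmb9 over Psmb6 ran from 0.590 to 0.667 with stroke under vehicle and from 0.562 to 0.790 without. Psmb10 over Psmb7 ran from 2.21 to 3.01 with stroke and from 2.08 to 2.56 without. In none of the 3 pairs did stroke and aged vehicle libraries separate. With 3 libraries against 3, an exact permutation test of such a ratio cannot go below p = 0.1, and none was run. By contrast, the ratio of Psme2 to Psme3, the PA28 subunit induced by interferon against the nuclear PA28 gamma, was 0.606 to 0.715 in aged stroke vehicle and 0.417 to 0.498 in aged vehicle, with no overlap.

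**Figure D2:**
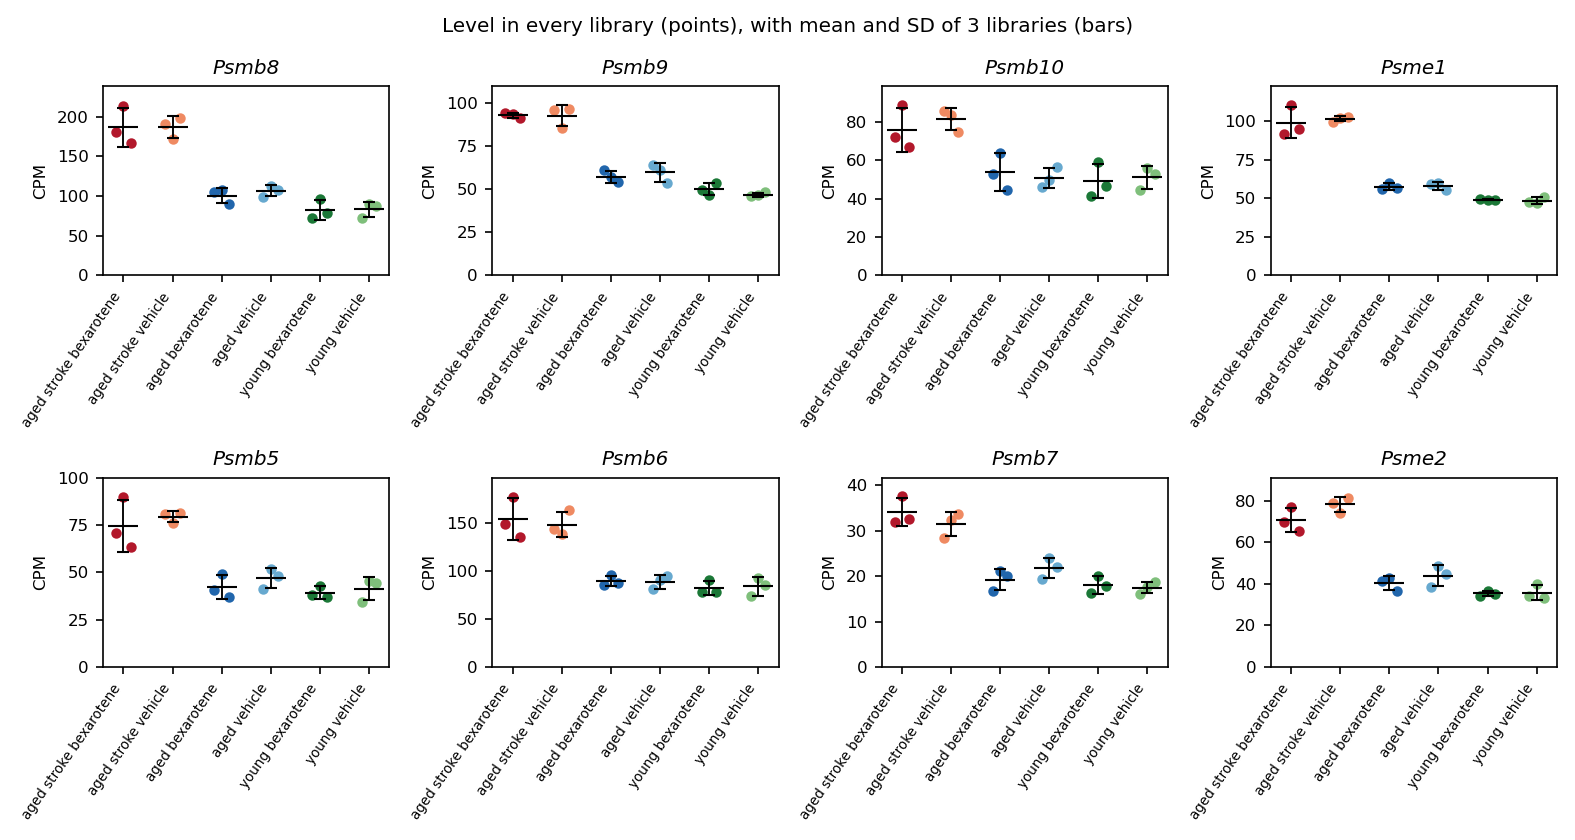
CPM (vertical axis) of the 3 interferon-induced catalytic subunits, their 3 standard counterparts and both PA28 subunits in every library, by group (horizontal axis); points are libraries and bars the mean and SD of 3. In all 8 panels the stroke libraries lie above the aged vehicle libraries, and bexarotene and vehicle libraries of the same age and stroke state overlap.

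**Figure D3:**
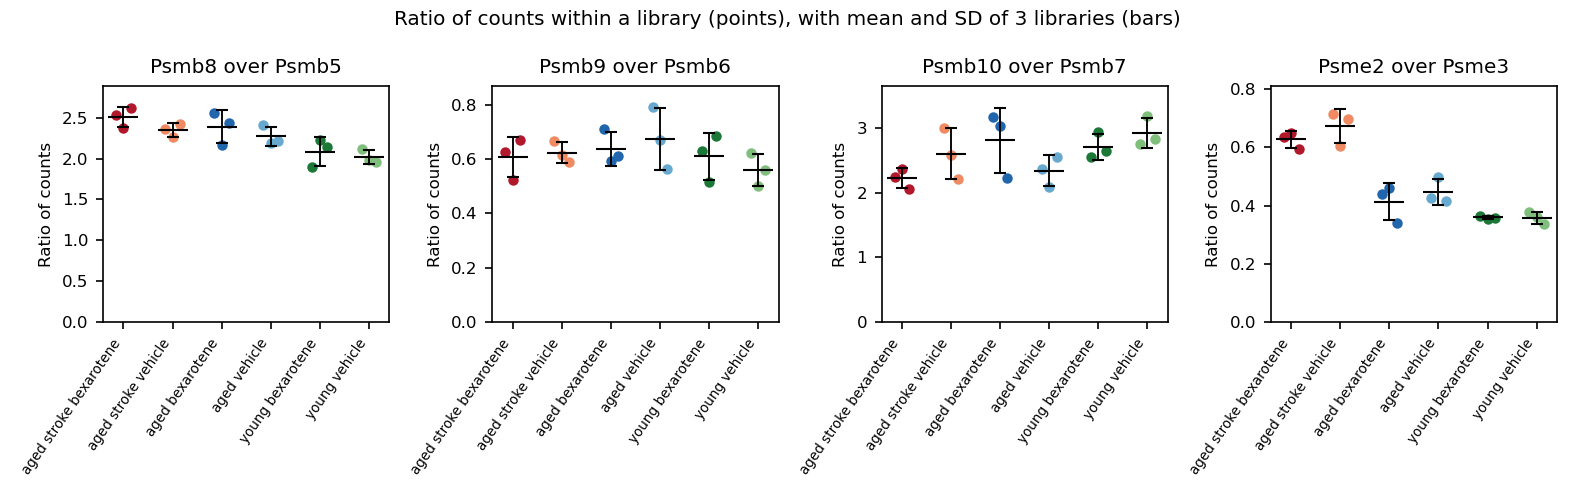
Ratio of counts within each library (vertical axis) for 4 pairs of genes, by group (horizontal axis); points are libraries and bars the mean and SD of 3. The 3 ratios of interferon-induced to standard catalytic subunits overlap between aged stroke vehicle and aged vehicle libraries, while Psme2 over Psme3 lies at 0.595 or more in stroke libraries and at 0.498 or less in the others.

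Both PA28 subunits were among the clearest changes. Psme1 had 99.4, 102 and 103 CPM in aged stroke vehicle libraries, against 59.1, 59.6 and 55.3 in aged vehicle libraries, and with a log2 fold change of 0.81 ± 0.09 had the lowest adjusted p of the 49 genes (4.73e-07). Psme2 had 79.1, 74.4 and 81.6 CPM with stroke under vehicle, against 38.4, 48.6 and 45.0 without, a rise of 0.83 ± 0.11 (adjusted p = 4.86e-06). Psme2b, a near-identical copy of Psme2, had a log2 fold change of 0.23 ± 0.12 (adjusted p = 0.133). The transcripts of Psme2 and Psme2b match at 99.4% of 794 bases, so how reads were divided between them is uncertain. All values of Psme2, its ratio to Psme3 included, are therefore uncertain. The other caps rose less: Psme4 by 0.52 ± 0.12 (adjusted p = 0.00199) and Psme3 by 0.25 ± 0.10 (adjusted p = 0.0415).

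Of the 17 subunits of the regulatory particle that the symbol rule took in, 11 rose and none fell, with a median log2 fold change of 0.37. In the ATPase ring, Psmc1, Psmc4 and Psmc5 rose by 0.46 to 0.54, while Psmc2, Psmc3 and Psmc6 had log2 fold changes of 0.07 ± 0.10, 0.10 ± 0.10 and 0.02 ± 0.09. The interval for Psmc6 (95%) was -0.17 to 0.22. All 3 scaffold and ubiquitin-binding subunits of the base under the rule rose: Psmd2 by 0.56, Psmd1 by 0.27 and the ubiquitin receptor Psmd4 by 0.21. The calls of Psmd4 and of Psme3 under vehicle were lost with RLE scaling, with no filter, in DESeq2, with the compared groups alone and with near-identical copies summed. Of the 8 lid subunits under the rule, 5 rose, including the deubiquitinase Psmd14 by 0.54 ± 0.10.

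Within the lid the range was wide. Psmd8 had 158, 145 and 171 CPM in aged stroke vehicle libraries, against 77.9, 83.7 and 86.0 in aged vehicle libraries, and rose by 0.94 ± 0.11 (adjusted p = 2.46e-06). Psmd11 had 93.2, 89.1 and 99.7 CPM with stroke under vehicle and 90.2, 98.3 and 96.6 without, a log2 fold change of -0.02 ± 0.09 (adjusted p = 0.898). The stroke and aged vehicle libraries of Psmd8 stood far apart, and those of Psmd11 were intermixed.

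The inhibitor and a chaperone were the genes that fell. Psmf1 (PI31), which inhibits the core in the test tube, had 30.8, 29.4 and 29.4 CPM in aged stroke vehicle libraries, against 36.5, 47.3 and 37.1 in aged vehicle libraries, with no overlap, and fell by 0.43 on the log2 scale (SE 0.12; adjusted p = 0.00560). Separation with stroke lower was not counted over all genes. Psmd5, a chaperone of base assembly, had 51.9, 66.0 and 58.3 CPM with stroke under vehicle and 62.4, 92.0 and 84.5 without. Its groups overlapped, and it fell by 0.44 (SE 0.14; adjusted p = 0.0158). That call was lost without library 2 of aged vehicle (adjusted p = 0.0746) or library 1 of aged stroke vehicle (adjusted p = 0.0664).

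Of the 7 assembly chaperones that the symbol rule took in, only Psmg4 rose. This partner of Psmg3 in building the alpha ring had 12.3, 11.4 and 14.1 CPM in aged stroke vehicle libraries, against 6.07, 5.77 and 5.47 in aged vehicle libraries, a log2 fold change of 1.13 ± 0.21 (adjusted p = 0.000187). Its partner Psmg3 had 10.2, 11.9 and 8.93 CPM with stroke under vehicle and 11.1, 12.6 and 15.0 without, a log2 fold change of -0.32 ± 0.16 (adjusted p = 0.115). The remaining core chaperones Psmg1 and Psmg2 and base chaperones Psmd9 and Psmd10 lay between -0.16 and 0.09 and did not pass the test. Psmc3ip, the gene outside the proteasome, had 3.93, 6.76 and 5.93 CPM in aged stroke vehicle libraries and 1.90, 2.45 and 1.82 in aged vehicle libraries, and rose by 1.43 ± 0.27 (adjusted p = 0.000259). It shares 385 bases of identical transcript sequence with its neighbour Mlx, which had 8055 counts over all libraries against 872 for Psmc3ip, so its counts are uncertain.

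**Figure D4:**
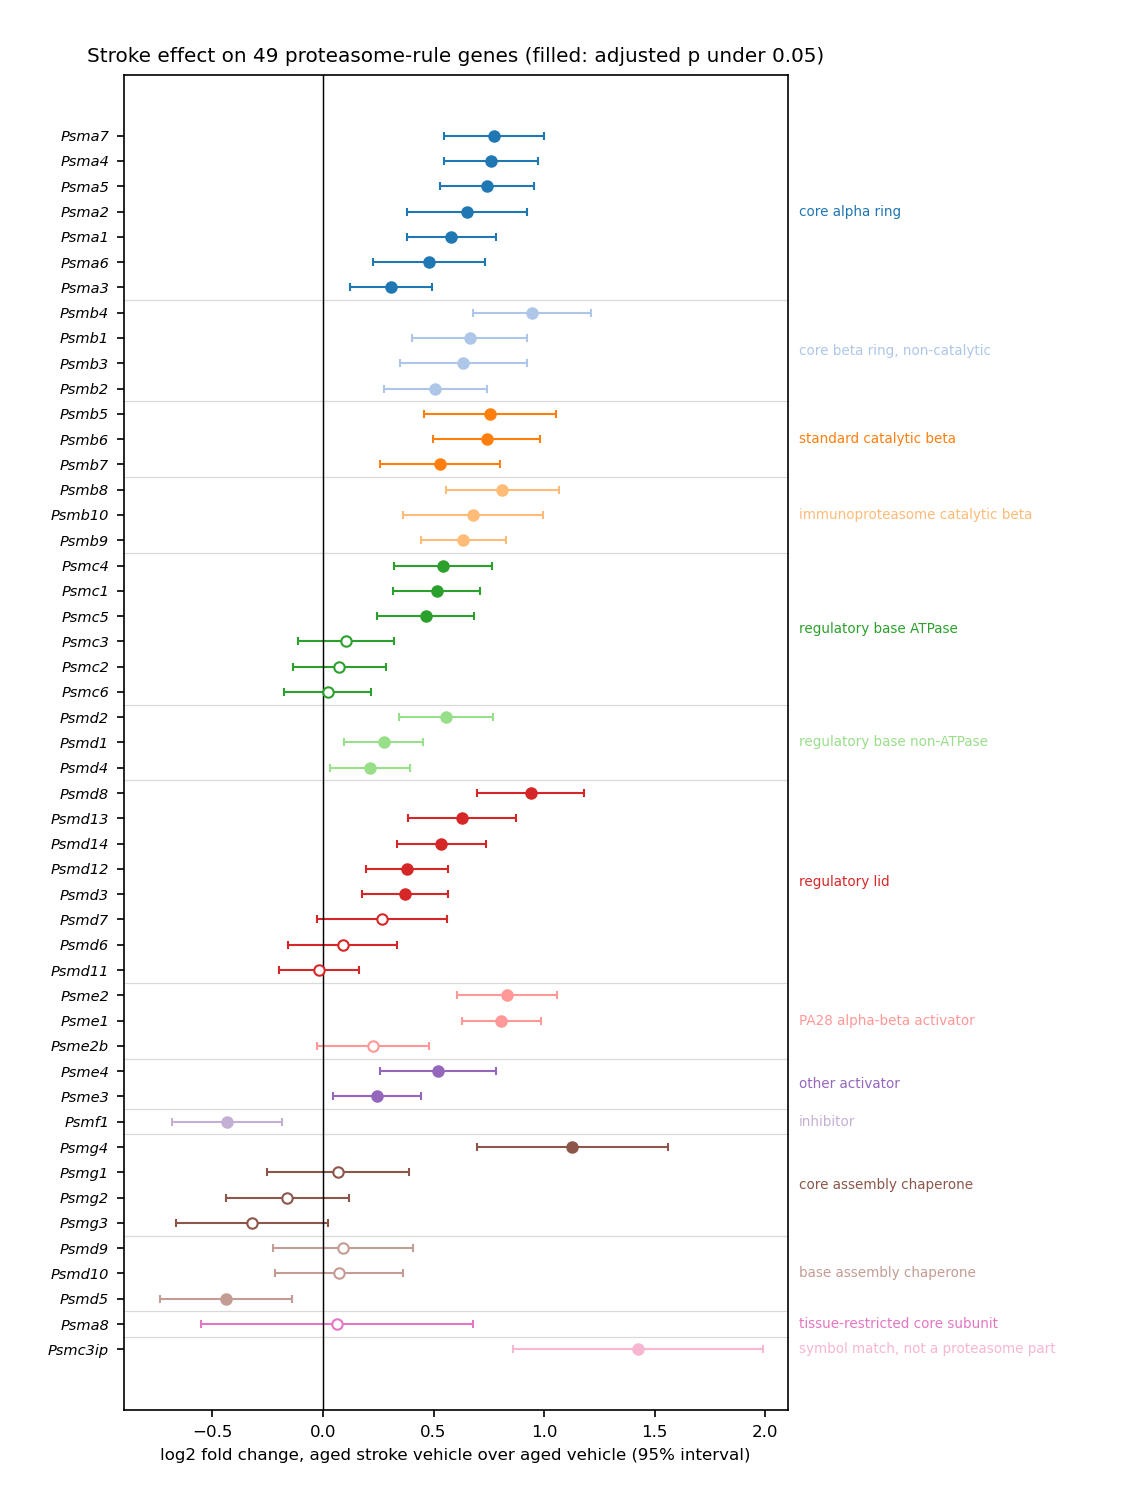
Log2 fold change of aged stroke vehicle over aged vehicle (horizontal axis) for the 49 genes tested, grouped by role; points are estimates from 3 libraries a group, bars 95% intervals, and filled points have an adjusted p under 0.05. All 14 standard core subunits and the 3 interferon-induced ones are filled and right of 0, and Psmf1 and Psmd5 are the filled points left of 0.

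The same stroke contrast in bexarotene-treated mice, which shares no library with the one under vehicle, gave 33 genes that rose and 1 that fell. Over all genes, 26.8% rose and 21.2% fell. The median log2 fold change was 0.49, against 0.00 over all genes. In all, 33 genes were called under both treatments, which is 33 of the 36 called under vehicle and 33 of the 34 called under bexarotene. Over all 15528 genes, 7497 were called under vehicle and 7450 under bexarotene. How many of those were shared was not counted, so the overlap of the proteasome genes is a description only. Psmd1, Psmd5 and Psme3 were called under vehicle alone and Psme2b under bexarotene alone. All 14 standard core subunits rose here too, with a median of 0.66, as did Psmb8 by 0.89 ± 0.12, Psmb9 by 0.70 ± 0.09 and Psmb10 by 0.49 ± 0.15.

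An interferon-induced subunit, a PA28 subunit and the inhibitor all separated by stroke under bexarotene. Psmb8 had 180, 214 and 166 CPM in aged stroke bexarotene libraries, against 104, 107 and 89.8 in aged bexarotene libraries. Psme1 had 91.7, 110 and 94.9 CPM in aged stroke bexarotene libraries, against 55.7, 60.0 and 56.8 in aged bexarotene libraries. Psmf1 had 37.1, 35.7 and 29.8 CPM in aged stroke bexarotene libraries, against 41.8, 49.8 and 44.8 in aged bexarotene libraries, and fell by 0.41 (SE 0.12; adjusted p = 0.00759). In each of these genes the groups stood apart. For stroke under bexarotene such separation was not counted over all genes, so here and in the next paragraphs it is a description only.

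The other genes with the lowest p under bexarotene were core and cap subunits. Psmb9 had 93.9, 93.4 and 90.9 CPM in aged stroke bexarotene libraries, against 60.8, 57.0 and 53.8 in aged bexarotene libraries. Psme2 had 70.0, 76.9 and 65.3 CPM in aged stroke bexarotene libraries, against 41.5, 43.0 and 36.5 in aged bexarotene libraries, a rise of 0.81 ± 0.11 (adjusted p = 7.00e-06). Psmb4 had 70.6, 84.9 and 64.5 CPM in aged stroke bexarotene libraries, against 36.9, 42.6 and 34.8 in aged bexarotene libraries, a rise of 0.94 ± 0.13 (adjusted p = 7.41e-06). None of these genes had overlapping groups.

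The standard catalytic subunits rose alongside them. Psmb5 had 71.0, 90.0 and 63.4 CPM in aged stroke bexarotene libraries, against 40.8, 49.4 and 36.8 in aged bexarotene libraries. Psmb6 had 150, 178 and 136 CPM in aged stroke bexarotene libraries, against 85.7, 96.0 and 87.9 in aged bexarotene libraries. Psmb7 had 32.0, 37.5 and 32.5 CPM in aged stroke bexarotene libraries, against 16.7, 21.1 and 20.0 in aged bexarotene libraries. Their log2 fold changes were 0.82 ± 0.14, 0.78 ± 0.12 and 0.82 ± 0.13, and library 2 was the highest of the stroke libraries in each.

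Psmb10 had 71.8, 88.8 and 66.9 CPM in aged stroke bexarotene libraries, against 52.8, 63.9 and 44.5 in aged bexarotene libraries. The groups lay close together without overlap. The rise of Psmb10 was lost without library 3 of aged bexarotene (adjusted p = 0.0720) or library 2 of aged stroke bexarotene (adjusted p = 0.0722).

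With all libraries numbered 1 left out, 33 of the 49 genes were called in the stroke comparison under vehicle, against 39.8% of all genes, and 31 under bexarotene, against 40.7%. Under vehicle, Psmd4 lost its call without any 1 of the 6 libraries, and Psme3 without any 1 but library 3 of aged vehicle. Without library 2 of aged vehicle, Psma3, Psmd1, Psmd4, Psmd5 and Psme3 lost their call under vehicle, and Psma3 was the only standard core subunit among them. With no filter on low counts, Psma3 lost its call under both treatments, Psmd1 under vehicle, and Psmc3ip, Psmd3, Psmd4 and Psmd12 under bexarotene. With the compared groups alone or without all libraries numbered 1, Psma3, Psmd3 and Psmd4 lost theirs under bexarotene, and with the groups alone also Psmd12. Psmd1 also lost its call without library 1 of aged vehicle or library 2 of aged stroke vehicle. Under bexarotene, Psma3, Psmb10, Psmd3, Psmd4 and Psmd12 lost theirs without library 2 of aged stroke bexarotene. Psma3 and Psmd4 did so also without library 1 or 2 of aged bexarotene or library 3 of aged stroke bexarotene, and Psmd3 and Psmd4 also without library 3 of aged bexarotene. Single omissions also added a call for Psmd7 or Psmg3 under vehicle and for Psmc3 or Psmd5 under bexarotene.

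Several cell and handling markers moved with stroke, given here under vehicle unless stated, and their part in the proteasome result was not tested. All 8 monocyte markers rose (2568 to 3654 CPM summed in aged stroke vehicle, 266 to 284 in aged vehicle), none of them at 0, and all 6 microglial markers fell (11880 to 13855 against 32146 to 35175). Of the 8 neutrophil markers 3 rose (535 to 1657 against 193 to 396 CPM), although Ly6G-positive cells had been removed. Under bexarotene none of the neutrophil markers rose and 1 fell (397 to 2797 CPM in aged stroke bexarotene, 579 to 1412 in aged bexarotene). Of 6 border macrophage markers, 1 rose and none fell under vehicle (265 to 439 against 331 to 420 CPM), and 1 rose and 4 fell under bexarotene (243 to 299.7 in aged stroke bexarotene, 351 to 438 in aged bexarotene). Of 8 genes that respond to tissue dissociation 5 rose and 2 fell (3394 to 5376 against 1059 to 1862 CPM). Of the 8 markers of T and NK cells, 1 of the 3 that passed the filter rose, their sum was 2.44 to 8.16 against 0.863 to 1.86 CPM, and Ifng, the gene of interferon gamma, was at 0 in all 6 groups. Among the stroke libraries, library 2 of aged stroke bexarotene had both the highest monocyte sum (4091 CPM) and the highest sum of the 31 standard subunits (4122 CPM), and library 1 of that group had the lowest of both (1703 and 3456 CPM). Library 2 was also the shallowest of them (16206144 counts), with the lowest microglial sum (11097 CPM). Library 1 was the deepest (29359943 counts), with the highest microglial sum (14725 CPM). These variables cannot be told apart here.

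Other housekeeping machinery rose with stroke as well. Of 86 cytosolic ribosomal protein genes, 81 rose and 1 fell under vehicle, with a median log2 fold change of 1.12, and of 89 nuclear genes of oxidative phosphorylation 74 rose and 2 fell, with a median of 0.74. The proteasome genes thus had a smaller median than either, 0.51, and no test of these medians against each other was made.

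The counts that follow, for genes that work with the proteasome but carry other names, are to be read against the 27.2% of all genes that rose and the 21.1% that fell with stroke under vehicle. Of 12 partners, 5 rose and 2 fell, with a median of 0.20. Sem1, the small lid subunit, averaged 210 CPM in aged stroke vehicle and 67.9 in aged vehicle, a log2 fold change of 1.63 ± 0.14 (adjusted p = 5.17e-08), larger than that of any of the 49 genes. Pomp, which completes core assembly, rose by 0.49 ± 0.10 (adjusted p = 0.000644), and the deubiquitinase Uchl5 rose by 0.58 ± 0.12 (adjusted p = 0.000753). Akirin2, which brings proteasomes into the nucleus, averaged 84.3 CPM in aged stroke vehicle and 153 in aged vehicle and fell by 0.86 (SE 0.11; adjusted p = 3.42e-06).

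Of 8 factors that control proteasome genes, 4 rose and 2 fell with stroke under vehicle, the shares that fell in both lists lying near that of all genes. Nlrc5, the transactivator of MHC class I genes, averaged 48.6 CPM in aged stroke vehicle and 10.7 in aged vehicle, a rise of 2.18 ± 0.22 (adjusted p = 3.07e-07). Nfe2l1, the factor that raises proteasome genes when the proteasome is blocked, had a log2 fold change of 0.03 ± 0.10 (adjusted p = 0.844). Ddi2, the protease that activates it, rose by 0.52 ± 0.12 (adjusted p = 0.00159), and Nfe2l2, the NRF factor of oxidative stress, fell by 0.53 (SE 0.12; adjusted p = 0.00178).

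Of 15 genes of ubiquitin and substrate delivery, 2 rose and 4 fell, a share of falls near that of all genes, with a median of -0.03. The ubiquitin-activating enzyme Uba1 rose by 0.61 ± 0.08 (adjusted p = 8.36e-06). Of 10 genes that load peptides onto MHC class I, 5 rose and 1 fell, with a median of 0.31, and under bexarotene 7 rose and 1 fell, with a median of 0.66, against 26.8% and 21.2% of all genes. Tap1, which pumps peptides into the endoplasmic reticulum, averaged 162 CPM in aged stroke vehicle and 50.1 in aged vehicle and rose by 1.69 ± 0.11 (adjusted p = 2.77e-09). Tap1 and Psmb9 are neighbours whose transcripts share 212 bases, and with the handling of strand not given, reads from that stretch cannot be told apart.

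In the age comparison, aged vehicle over young vehicle, no proteasome gene passed the test, against 1.7% of all genes. There were 5 of the 49 at an unadjusted p under 0.05, against 2034 of all 15528 genes. DESeq2 called 1, Psmb9 (adjusted p = 0.0145), against 522 of 14022 genes tested. The median log2 fold change was 0.06, against -0.01 over all genes. Of the 49 estimates 36 were positive, against 47.6% over all genes. The 5 genes with the lowest p were Psmb9, Psme1, Psmb8, Psme2 and Psmb7.

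Psmb9 had 64.1, 61.3 and 53.4 CPM in aged vehicle libraries, against 45.8, 46.5 and 48.1 in young vehicle libraries, a log2 fold change of 0.35 ± 0.09 (adjusted p = 0.0654). Psme1 had 59.1, 59.6 and 55.3 CPM in aged vehicle libraries, against 47.2, 47.1 and 51.0 in young vehicle libraries, with a log2 fold change of 0.26 ± 0.09 (adjusted p = 0.162). Psmb8 had 99.3, 113 and 107 CPM in aged vehicle libraries, against 72.6, 89.7 and 87.8 in young vehicle libraries, with a log2 fold change of 0.35 ± 0.12 (adjusted p = 0.184). In these 3 genes every aged library exceeded every young one. Groups stood apart in this way, aged higher, for 5 of the 49 genes, against 9.69% of all genes.

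Psme2 had 38.4, 48.6 and 45.0 CPM in aged vehicle libraries and 34.2, 39.9 and 33.2 in young vehicle libraries, which overlapped. The third interferon-induced subunit, Psmb10, had 46.0, 49.7 and 56.4 CPM in aged vehicle libraries, against 44.4, 56.0 and 52.7 in young vehicle libraries, a log2 fold change of -0.01 ± 0.15 with a 95% interval of -0.33 to 0.31. Its sign turned under other scalings, so no direction is given. The standard counterparts Psmb5, Psmb6 and Psmb7 had log2 fold changes of 0.18 ± 0.15, 0.08 ± 0.12 and 0.32 ± 0.13. Psmb6 turned to -0.01 without library 1 of young vehicle.

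The ratio of Psmb8 to Psmb5 counts was 2.19 to 2.41 in aged vehicle libraries and 1.96 to 2.11 in young vehicle libraries, which did not overlap, whereas Psmb9 over Psmb6, 0.675 ± 0.114 in aged vehicle and 0.560 ± 0.0605 in young vehicle (SD, n = 3 each), overlapped. Psmb10 over Psmb7 was lower in every aged vehicle library, at 2.08 to 2.56, than in young vehicle libraries, at 2.75 to 3.19. None of these ratios was tested. That of Psmb8 to Psmb5 depends on how reads were divided between Psmb5 and its copy Gm3375, which had 6909 counts over all libraries against 14380 for Psmb5. Psme2 over Psme3 was 0.417 to 0.498 in aged vehicle and 0.336 to 0.378 in young vehicle. This ratio depends on how reads were divided between Psme2 and its near-identical copy Psme2b, and it was not taken with Psme2b added. For 44 of the 49 genes the 95% interval of the age effect lay within 1.5-fold either way.

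Neighbouring steps of class I presentation did pass the test with age. H2-D1, a class I heavy chain, averaged 1533 CPM in aged vehicle and 697 in young vehicle and rose by 1.14 ± 0.15 (adjusted p = 0.000290). H2-K1 and B2m, the other heavy chain and its light chain, rose by 0.91 ± 0.14 and 0.79 ± 0.14 (adjusted p = 0.00154 and 0.00422). In all, 3 of the 10 class I genes rose and none fell, against 1.26% of all genes that rose and 0.438% that fell. Markers of border macrophages, the macrophages of meninges and vessels, moved with age as well: 3 of 6 fell, and they summed to 331 to 420 CPM in aged vehicle and 554 to 753 in young vehicle libraries, with none at 0. Their part in the age values was not tested. Of the 8 factors that control proteasome genes, 2 rose and none fell, and Nlrc5 rose by 1.42 ± 0.25 (adjusted p = 0.00393). No partner and no ubiquitin gene passed. The age and stroke comparisons under vehicle share the aged vehicle libraries, so their values stand side by side here without a test between them.

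Bexarotene moved no proteasome gene past the test in any of the 3 settings. In young mice 0.509% of all genes were called, in aged mice 0.258% and after stroke 0.058%. The median log2 fold change of the 49 genes was 0.00 in young, -0.01 in aged and 0.00 in stroke mice. DESeq2 and limma voom also called 0 of them in each setting. At an unadjusted p under 0.05 there were 1 in young mice, 1 in aged mice and 0 after stroke. Over all 15528 genes there were 1300, 1012 and 988 at that threshold.

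In young mice the lowest p belonged to Psmc3ip, with 1.33, 1.55 and 1.43 CPM in young bexarotene libraries and 2.58, 2.02 and 2.27 in young vehicle libraries, a log2 fold change of -0.67 ± 0.29 (adjusted p = 0.519). In aged mice it was Psme2b, with 27.4, 21.5 and 25.8 CPM in aged bexarotene libraries and 30.2, 31.3 and 30.8 in aged vehicle libraries, a log2 fold change of -0.31 ± 0.12 (adjusted p = 0.660). In both genes the libraries did not overlap. Such separation was not counted over all genes for bexarotene, so here and below it is a description only. After stroke it was Psmf1, with 37.1, 35.7 and 29.8 CPM in aged stroke bexarotene libraries and 30.8, 29.4 and 29.4 in aged stroke vehicle libraries, which overlapped, a log2 fold change of 0.20 ± 0.12 (adjusted p = 0.878). It was also second by p in the other settings. Psmf1 had 46.7, 45.6 and 47.6 CPM in young bexarotene libraries and 36.2, 41.5 and 42.7 in young vehicle libraries, a log2 fold change of 0.22 ± 0.12, with no overlap. It had 41.8, 49.8 and 44.8 CPM in aged bexarotene libraries and 36.5, 47.3 and 37.1 in aged vehicle libraries, a log2 fold change of 0.18 ± 0.12, with overlap.

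The other genes with low p were a chaperone and 2 activators, and none passed the test. In young mice Psmg1 had 18.0, 21.2 and 18.3 CPM in young bexarotene libraries and 15.9, 17.3 and 14.8 in young vehicle libraries, a log2 fold change of 0.26 ± 0.16 (adjusted p = 0.739). In aged mice Psme4 had 26.9, 28.5 and 26.5 CPM in aged bexarotene libraries and 34.6, 27.0 and 31.6 in aged vehicle libraries, a log2 fold change of -0.19 ± 0.13 (adjusted p = 0.887). After stroke Psme4 had 37.2, 38.6 and 40.5 CPM in aged stroke bexarotene libraries and 49.0, 45.7 and 39.0 in aged stroke vehicle libraries, a log2 fold change of -0.20 ± 0.12 (adjusted p = 0.886). Only the libraries of Psmg1 stood apart. Psme2 after stroke had a log2 fold change of -0.15 ± 0.11 (adjusted p = 0.937).

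The intervals of the interferon-induced subunits give the size of bexarotene effect that these libraries allow. For Psmb8 the log2 fold change was -0.02 in young mice (95% interval -0.28 to 0.24), -0.08 in aged mice (-0.34 to 0.17) and 0.00 after stroke (-0.25 to 0.25). For Psmb9 the intervals were -0.10 to 0.29, -0.25 to 0.13 and -0.19 to 0.19. Those of Psmb10 were wider, at -0.38 to 0.26, -0.23 to 0.40 and -0.41 to 0.21. The whole interval lay within 1.5-fold either way for 45 of the 49 genes in young mice, 47 in aged mice and 47 after stroke. A p that misses the threshold does not show equal levels, and effects within these intervals remain possible.

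Neither difference of bexarotene effects gave a call. Between aged and young mice, 0% of all 15528 genes and 0 of the 49 were called. Of the 49, 1, Psmc3ip, had an unadjusted p under 0.05 (difference 1.00 ± 0.41), against 456 of all genes. The difference between stroke and no stroke in aged mice is also that of the stroke effects between bexarotene and vehicle. There, 0% of all genes and 0 of the 49 were called. None of the 49 had an unadjusted p under 0.05, against 638 of all genes. DESeq2 and limma voom called 0 of the 49 in both. The intervals lay within 1.5-fold either way for 39 genes in each. For Psmb7, which had a stroke effect of 0.82 ± 0.13 under bexarotene and 0.53 ± 0.13 under vehicle, the difference was 0.29 with an interval of -0.10 to 0.67 (95%), the lowest p of that difference. For Psme2b the difference of bexarotene effects was -0.32 ± 0.18 between aged and young mice and 0.25 ± 0.17 between stroke and no stroke.

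**Figure D5:**
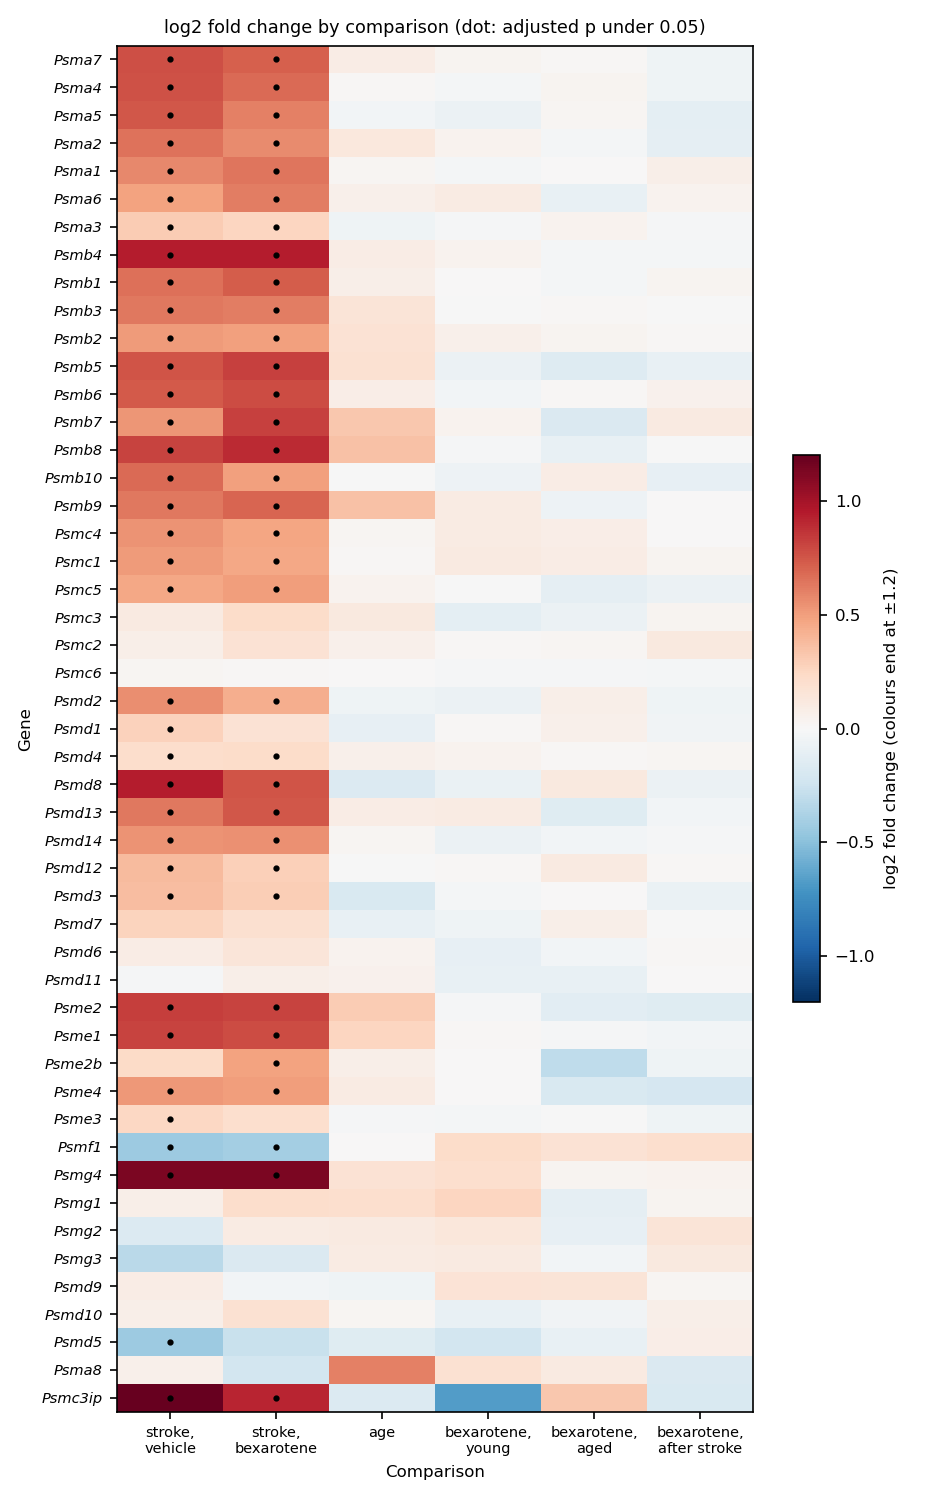
Log2 fold change (colour) of the 49 genes tested (rows, by role) in 6 comparisons (columns); a dot marks an adjusted p under 0.05. Dots appear in both stroke columns, 36 under vehicle and 34 under bexarotene, and in no column for age or bexarotene.

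Counts of some genes may be split with copies elsewhere. A search of transcripts found, for 16 of the 50 genes, another gene with at least 95% identity over at least 150 bases, and for 12 of them that gene held more than 5% as many counts as the proteasome gene. For Psmb5 the copy Gm3375 (98.9% identity) had 6909 counts over all libraries against 14380 for Psmb5, so all values of Psmb5, its ratios included, are uncertain. With unnamed copies added to their 10 parent genes and Psme2b to Psme2, a setting chosen after seeing the data, 34 genes were called with stroke under vehicle, against 48.4% of all genes, and 33 under bexarotene, against 48%, and 0 with age.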

How the data were processed

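The authors deposited whole-number counts per gene for 18 libraries (SMART-Seq v4 PLUS, per the labels' protocols), with no normalization, and per the submitters' processing notes used the GRCm39 build, Trimmomatic 0.40, STAR 2.7.10a, GATK and R 4.4.2. The sources used here do not state the annotation, the strand setting or the role of each tool, and the authors' comparison tables were not used here. Symbols came from GENCODE M21 (GRCm38), which named 52029 of 57010 genes, and each gene's principal transcript there gave its length. Symbol classes, roles, markers and pathway lists were chosen with earlier results of these data known.

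Counts were tested with edgeR 4.0.16 (R 4.3.3): filterByExpr left 15528 genes, TMM factors ran from 0.937 to 1.05, and the quasi-likelihood fit took in all 18 libraries (12 residual df, robust dispersions), with Benjamini-Hochberg adjustment over all genes tested. CPM are scaled by TMM over the genes tested. SE come from the F statistic. The libraries are labelled biological replicates, and p-values measure the spread between them. Replicates differed beyond sampling noise (chi-square per degree of freedom 6.19 to 40.3). On simulated counts for the age comparison, 73.5% of 200 genes changed 2-fold were recovered among 14332 tested, with 7 calls among unchanged genes. The simulation gave every gene the same spread (square root of the dispersion 0.195) and changed only genes above a set CPM. It does not give the recovery of the proteasome genes, whose median SE with age was 0.116, against 0.204 over all genes. Floors of 3 counts cover counting error only, since reads carry no molecular identifiers.

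Values in every library are given for Psmb5 to Psmb10, Psme1, Psme2 and, per comparison, up to 6 called genes of each sign with the lowest p, or the 3 with the lowest p where none was called. Psmg4, Psmg3, Psmd11, Psmc3ip and Psme2b were added after their values were seen. Same-numbered libraries were taken as paired where all 3 pairs correlated above 0.1, which held only for bexarotene against vehicle in young mice (0.208, 0.374 and 0.235), where the replicate block left 0 genes called. With stroke under bexarotene all 3 were positive but 2 lay below 0.1 (0.0926, 0.126 and 0.0838). Alternatives were RLE scaling, no filter, DESeq2 1.42.0, limma voom 3.58.1, the compared groups alone, a replicate block, leaving out libraries and summing near-identical copies. Results for some genes of the pathway lists are not reported here.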

Additional observations from a re-analysis of the deposited data

How the results depend on the processing

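The count of proteasome genes called with stroke stayed between 32 and 36 under vehicle and between 29 and 35 under bexarotene in the alternatives that kept all libraries or dropped those numbered 1, and with 1 library left out at a time it ran from 31 to 36 under vehicle and from 29 to 34 under bexarotene. With the replicate block, 36 genes were called under vehicle and 35 under bexarotene, and the block changed no other count. With age, DESeq2 called 1 gene where edgeR called 0, and the cause was not tested; without 1 library each the count was 0 to 0. Bexarotene effects and their differences gave 0 in every alternative run. The age estimate of Psmb10, -0.01, became 0.012 with RLE scaling, 0.023 with no filter and 0.012 with DESeq2, and ran from -0.10 to 0.062 with 1 library left out at a time, above 0 without library 2 or 3 of young vehicle or library 1 of aged vehicle. That of Psmb6, 0.08, ran from -0.0092, without library 1 of young vehicle, to 0.16. RLE scaling moved the median of all genes by less than 0.1 on the log2 scale. Among the genes whose library values the rule asks for, 4 calls with stroke were lost in an alternative, in Psmd5 and Psmb10, and 1 was gained, in Psmb9 with age. Libraries without stroke were the shallower ones, with at least 7582511 counts, and the least counted of the 49 genes, Psmc3ip, had 13 counts in its lowest library.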
